A study of Mus musculus with 21 samples.

Results

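Transfer RNA for glutamine (tRNA Gln) carries glutamine to the ribosome, and its nuclear genes in the mouse encode the anticodon CTG, which reads the codon CAG, or the anticodon TTG, which reads CAA. The genes described here are all those whose name ends in GlnCTG or GlnTTG, chosen by that name alone. They are 22 of the 3283 predicted tRNA genes counted by Pol III ChIP-seq, 12 of them GlnCTG and 10 GlnTTG genes. In tRNA-seq they are 17 of the 1143 genes at which reads are listed, 10 of them GlnCTG and 7 GlnTTG genes. Isoacceptors such as these carry the same amino acid and differ in the anticodon. NSun2 is an RNA methyltransferase that adds a methyl group to cytosines of many tRNAs, mainly beside the variable loop. Endonucleases such as angiogenin can cleave a tRNA in the anticodon loop, and the pieces that begin at the 5′ end of the tRNA are called 5′ fragments.

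The study set back skin of NSun2 −/− mice against wild-type (WT) skin, to learn how the loss of the methyltransferase alters tRNAs. All mice were males at postnatal day 25, bred on a C57Bl6/J CBA F1 background, and the NSun2 −/− mice carry a gene trap in both copies of Nsun2, while the WT mice came from the same breedings. The 21 libraries comprise tRNA-seq and RNA bisulphite sequencing, with 4 WT and 4 NSun2 −/− libraries each. The others are Pol III ChIP-seq with an antibody against POLR3A, in 2 libraries of WT and 1 of NSun2 −/− skin, each genotype having 1 input library. Each ChIP-seq library was made from skin of 3 pooled mice, and the libraries of a group are labelled as independent biological replicates. Whole skin holds many cell types, so that fewer cells of a type and less RNA per cell cannot be told apart in any value given here.

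The targeted gene was checked first, by the number of its cytosines that the bisulphite libraries list with at least 10 reads. For Nsun2, on mouse chromosome 13 from 69672624 to 69774658 of the genome build mm9, the WT libraries 1 to 4 list 31, 23, 48 and 43 cytosines and each of the 4 NSun2 −/− libraries lists 0. Genes of keratinocytes, dermal fibroblasts and the muscle layer of the skin are listed in all 8 libraries, with 46 to 125 cytosines of Krt1 in WT and 23 to 196 in NSun2 −/− libraries. The liver genes Alb and Apoa1 have 0 listed cytosines in every library. Signal from Nsun2 was thus absent at this depth in all 4 NSun2 −/− libraries, and genes of skin were present in all 8.

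Of the 22 genes, 13 are on the study's list of transcribed tRNA genes, which gives their coordinates, 10 GlnCTG and 3 GlnTTG genes among 249 genes in all. Each is 72 nucleotides (nt) long, with the anticodon at nt 34 to 36 counted from 1 at the 5′ end of the gene. They fall into 7 distinct sequences, shown here because the positions at which they differ decide which reads can be given to a single gene. Capitals mark the anticodon and each base that differs from the first sequence, which the genes chr11.trna1817, chr13.trna64, chr13.trna982 and chr9.trna342 share.
chr11.trna1817-GlnCTG: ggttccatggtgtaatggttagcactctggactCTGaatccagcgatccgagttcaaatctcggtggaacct
chr3.trna297-GlnCTG: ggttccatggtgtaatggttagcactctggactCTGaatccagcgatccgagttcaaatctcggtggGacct
chr3.trna309-GlnCTG: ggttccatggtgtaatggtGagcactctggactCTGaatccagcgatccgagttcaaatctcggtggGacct
chr13.trna87-GlnCTG: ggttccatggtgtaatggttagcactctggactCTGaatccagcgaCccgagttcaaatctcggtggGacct
chr13.trna975-GlnCTG: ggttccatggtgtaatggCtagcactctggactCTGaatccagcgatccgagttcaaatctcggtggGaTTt
chr11.trna1493-GlnTTG: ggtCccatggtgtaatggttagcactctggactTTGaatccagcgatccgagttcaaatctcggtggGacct
chr13.trna113-GlnTTG: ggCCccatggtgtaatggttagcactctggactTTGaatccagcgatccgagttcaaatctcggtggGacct
The second sequence is that of chr3.trna297, chr3.trna753 and chr3.trna756, and the last that of chr13.trna113 and chr13.trna114. Relative to the first sequence, the changes are A68G in the second, T20G and A68G in chr3.trna309, T47C and A68G in chr13.trna87, and T19C, A68G, C70T and C71T in chr13.trna975. The GlnTTG genes carry C34T in the anticodon together with T4C and A68G in chr11.trna1493, or with T3C, T4C and A68G in chr13.trna113 and chr13.trna114. Identity to the first sequence is thus between 94.4% and 98.6% for the other 6, and a read is known as GlnTTG only from nt 3, nt 4 or the anticodon. GlnCTG is also marked by A at nt 68 and by the changes at nt 19, 20, 47, 70 and 71 of single genes. Because of these near-identical copies, most reads match several genes, and the values below are given per isoacceptor unless a read covers a base that marks a single gene.

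The 13 genes share features that their names do not imply. All of them hold GTTCAAATC in the arm before the acceptor stem, where 46 of the 249 listed tRNA genes (18.5%) do, and 0 of them hold GTTCGA, which 170 genes (68.3%) do. Both motifs were searched on the strand of the tRNA, and the first also occurs in genes for tRNA Cys, Pro, Ser, Thr and Trp. The B box of the internal promoter of tRNA genes lies in this arm. A run TTTT, the usual signal at which Pol III stops, begins within 30 bases downstream of 11 of the 13 genes and of 233 of the 249 (93.6%). The genes without such a run are chr3.trna297 and chr3.trna756. The GlnTTG gene chr11.trna1493 (chr11:95720486-95720557, minus strand, mm9) overlaps the annotated genes 4833417C18Rik and Gm11527, lying in an exon of the latter, and the other 12 overlap no annotated gene. The nearest protein-coding gene is Rab11a at 288 bases for chr9.trna342 (chr9:64585853-64585924, plus strand) and Hes7 at 552 bases for chr11.trna1817 (chr11:68938109-68938180, minus strand). The other listed genes lie at least 5524 bases from a protein-coding gene.

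Pol III transcribes tRNA genes, so its occupancy shows which of the copies were in use. The authors counted ChIP-seq reads at each predicted gene, and the library totals are 36866 and 63136 counts in WT, 95112 counts in NSun2 −/− skin, and 15918 and 14483 counts in the WT and NSun2 −/− input. To count as bound, a gene needed 10 reads or more in each WT library, and reads per 1000000 (RPM) of 2-fold the WT input or more after adding 1 count. By this rule 10 of the 22 tRNA Gln genes were bound, beside 6.76% of all 3283 genes, namely 8 of 12 GlnCTG and 2 of 10 GlnTTG genes. The genes off the study's list held at most 11 counts in a Pol III library and were not bound. Without the comparison with the input 13 genes were bound, since chr11.trna1493, chr3.trna309 and chr3.trna756 have 16, 10 and 9 counts in the WT input.

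Occupancy differed widely among genes of the same sequence. Among the 4 identical GlnCTG copies, chr11.trna1817 had 172 and 163 counts in the WT libraries and 271 in the NSun2 −/− library, which are 4693, 2598 and 2859.8 RPM. The copy chr9.trna342 reached 107, 238 and 403 counts (2929.5, 3785 and 4248 RPM). By contrast chr13.trna982 (chr13:22025830-22025901, minus strand) had 35, 51 and 61 counts, or 977, 824 and 652 RPM. These copies share one sequence from end to end, and reads matching several copies were shared out by the authors in proportion to uniquely matching reads. Among GlnTTG genes, chr13.trna113 (chr13:23610919-23610990, plus strand) led with 202, 196 and 343 counts (5506, 3120.2 and 3617 RPM).

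Only 1 NSun2 −/− ChIP-seq library exists here, so its difference from WT has no replicate check and no test. The median log2 ratio of NSun2 −/− to mean WT RPM was −0.41 over the 10 bound tRNA Gln genes, −0.51 over the 8 GlnCTG and −0.16 over the 2 GlnTTG genes. Over all 222 bound genes it was 0.16. The tRNAs for glutamate and others, given for comparison, had medians of 0.32 (GluCTC), 0.34 (GluTTC), −0.09 (AspGTC) and 0.07 (GlyGCC). Of the 10 genes, 8 were below WT, but the value rests on the WT library taken: the median was −0.66 against WT library 1 alone and −0.05 against WT library 2 alone. The title of WT library 1 names PolII, where those of WT library 2 and the NSun2 −/− library name PolIII, but its antibody label names POLR3A as theirs do, and it was taken as Pol III. The titles of the NSun2 −/− ChIP-seq and input libraries read KD, while their genotype label is NSun2 −/−, which was used. Scaled by the counts of all bound genes the median was −0.64. The lowest ratio was that of chr13.trna87 (chr13:22012069-22012140, plus strand), with 42 and 61 counts in WT and 41 counts in the deeper NSun2 −/− library, or 1166, 982 and 442 RPM and a log2 ratio of −1.28. Its RPM in the NSun2 −/− library was close to that of the NSun2 −/− input, 414 RPM from 5 counts. This also holds for chr3.trna753, at 421 RPM against 483 RPM of the input, and for chr3.trna297, at 568 against 552 RPM.

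**Figure D1:**
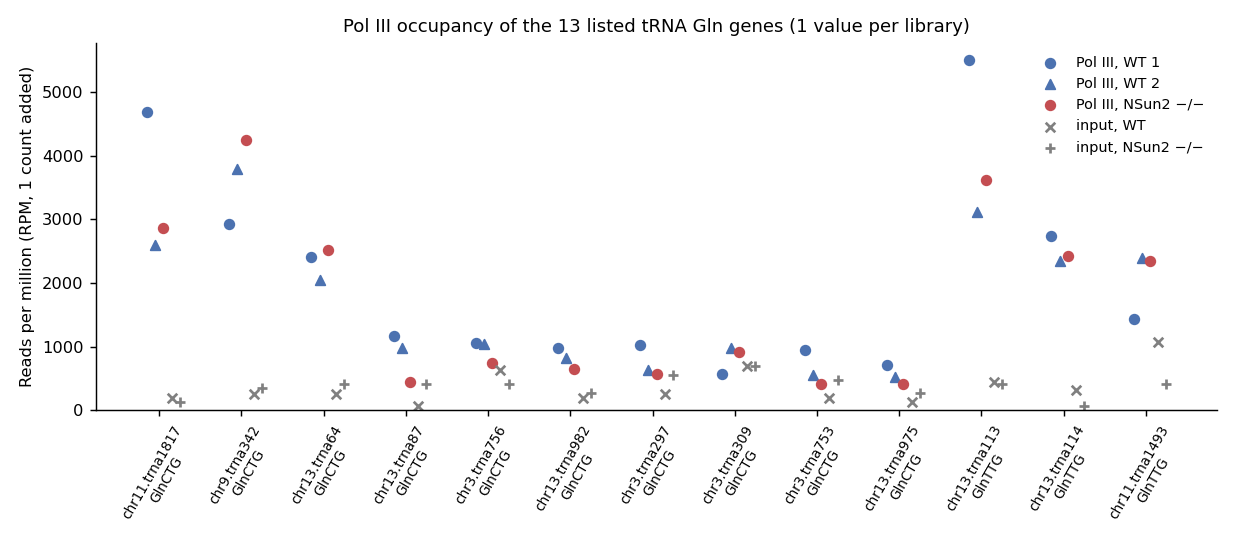
Pol III occupancy of the 13 listed tRNA Gln genes in reads per 1000000 (RPM, 1 count added, vertical axis) for each gene (horizontal axis), with a point for each ChIP-seq and input library. The genes chr11.trna1817, chr9.trna342, chr13.trna64, chr13.trna113 and chr13.trna114 lie above 2000 RPM in all 3 Pol III libraries, and chr13.trna87 lies at 1166 and 982 RPM in WT and 442 RPM in the NSun2 −/− library.

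In tRNA-seq the library totals lay between 17352126 and 36749727 counts, and tRNA Gln took 2.13%, 1.86%, 1.62% and 1.80% of them in WT libraries 1 to 4 and 1.53%, 1.12%, 1.16% and 1.89% in NSun2 −/− libraries 1 to 4. It was lower than in all WT libraries in 3 of the 4 NSun2 −/− libraries, while library 4 lay above 3 of the WT libraries. Means were 1.85% ± 0.213 for WT and 1.43% ± 0.358 for NSun2 −/− libraries (SD, n = 4), and the exact permutation test, two-sided, gave p = 0.114 (adjusted p = 0.286 over 5 shares tested). With 4 libraries against 4 the smallest p of this test is 0.0286. Counts of a sequence in this table are not numbers of molecules: for 98.7% of the tRNA Gln counts that could be examined, the 8 counts of a sequence were whole multiples of the number of mm9 loci it matches, within 0.5 per gene listed. By number of sequences this held for 462 of the 676 examined (68.3%). Tests were therefore repeated with counts divided by the loci, an alternative chosen after seeing the data. It gave no value for 5′ fragments that match both isoacceptors or for the called sequence GlnTTG 23-40, both described below. The tRNA Gln share differed by −0.428 percentage points with counts as deposited and by −0.231 with counts divided by the loci.

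The 5′ fragments were taken as reads of 25 to 40 nt that begin at the first nucleotide. Their levels are given in counts per 1000000 (CPM) within the class, after TMM scaling. GlnCTG 5′ fragments stood at 18758, 12737, 15381 and 15317 CPM in WT libraries 1 to 4 and at 10796, 10919.9, 7729 and 14707 CPM in NSun2 −/− libraries 1 to 4. The groups overlapped, with 3 of 4 NSun2 −/− libraries below all WT libraries, and the difference of −0.49 on the log2 scale (SE 0.24) did not pass edgeR's quasi-likelihood test (adjusted p = 0.123). Without NSun2 −/− library 4 it was −0.65, with an adjusted p of 0.0450, in a range of 0.0450 to 0.597 over all alternatives. The 0.597 belongs to the deposited gene names, an alternative that took all reads of 25 to 40 nt, wherever they begin. GlnTTG 5′ fragments were far fewer, at 315, 154, 209.5 and 191 CPM in WT and 113, 194, 92.7 and 110.1 CPM in NSun2 −/− libraries. Here too 3 of 4 NSun2 −/− libraries lay below all WT libraries, and the log2 change of −0.77 (SE 0.31) was short of the threshold in edgeR (adjusted p = 0.0646) and in DESeq2 (adjusted p = 0.0546). Leaving out NSun2 −/− library 2 gave −0.99 and an adjusted p of 0.0182, in a range of 0.0182 to 0.151 over all alternatives. Both isoacceptors thus had lower mean levels without NSun2, though neither passed the edgeR test with TMM, the filter and counts as deposited. For GlnTTG some alternatives passed, as given in the closing section.

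A few 5′ fragments match both isoacceptors, because mismatched bases hide where the genes differ. They amounted to 4 sequences, with 229, 126, 87 and 125 counts in WT and 89, 141, 76 and 26 counts in NSun2 −/− libraries. Divided by the loci these are few reads, 18, 10, 7 and 10 in WT and 7, 11, 6 and 2 in NSun2 −/− libraries. In CPM, 3 of 4 NSun2 −/− libraries lay below all WT libraries. In edgeR the log2 change was −1.25 (SE 0.44, adjusted p = 0.0482), as the only tRNA Gln group called among the 49 families and shared groups tested, of which 32.7% were called. The call did not survive the loss of any library, although the change kept its direction. It was −0.92, −1.27, −1.46 and −1.37 without WT library 1, 2, 3 or 4, with adjusted p of 0.0912, 0.0776, 0.0594 and 0.0796. Without NSun2 −/− library 1, 2, 3 or 4 it was −1.49, −1.32, −1.39 and −1.03, with adjusted p of 0.0517, 0.0726, 0.0732 and 0.0852. Over all alternatives it ranged from 0.0294 to 0.0912. In all, 6 families were called lower and 10 higher, or 10 and 9 without TMM and 4 and 10 when scaled by all tRNA counts. Among the comparison families, GluCTC had a log2 change of 0.09, GluTTC of 0.27, AspGTC of −0.89 and GlyGCC of −0.22, and none of these passed the test (adjusted p = 0.758, 0.396, 0.117 and 0.285 in edgeR).

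**Figure D2:**
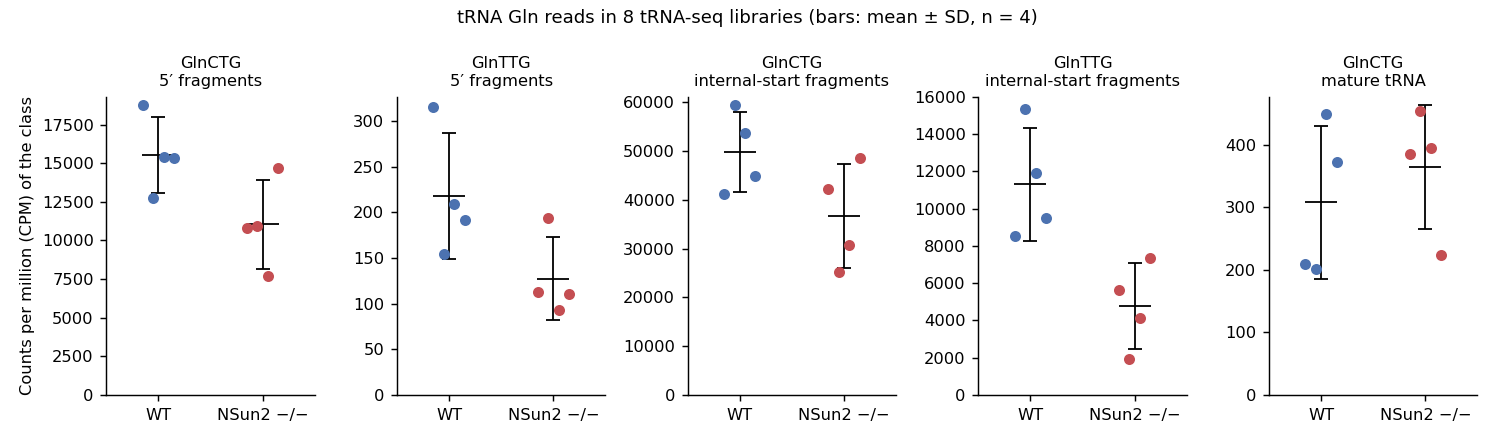
Level of each class of tRNA Gln reads in counts per 1000000 (CPM) within the class (vertical axis) by genotype, with a point per tRNA-seq library and bars for the mean ± SD of 4 libraries. The groups overlap in 4 panels, and only GlnTTG internal-start fragments separate, at 8545 CPM or more in WT and 7338 CPM or less in NSun2 −/− libraries.

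Where the fragments end differed between the isoacceptors. Among GlnCTG reads that start at nt 1, those ending at nt 34, the first base of the anticodon, took 40.3%, 49.1%, 51.4% and 51.2% of counts in WT and 46.2%, 46.4%, 45.4% and 44.2% in NSun2 −/− libraries. Ends at nt 33, nt 54 and nt 32 followed, at a mean of 17.7% ± 5.48, 9.71% ± 2.87 and 7.67% ± 2.18 (SD, n = 4) in WT. GlnTTG reads ended mostly at nt 32, at 66.8%, 51.1%, 70.2% and 65.3% in WT and 60.9%, 76.6%, 59.6% and 47.3% in NSun2 −/− libraries. Ends at nt 33 took 14.6% ± 1.89 of GlnTTG counts in WT. Both profiles overlapped between the genotypes at these ends. The most abundant reads are shown to mark where the fragments of each isoacceptor end, with the bases of the anticodon in capitals.
GlnCTG 1-34: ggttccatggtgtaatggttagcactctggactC
GlnCTG 1-33: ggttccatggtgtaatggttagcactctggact
GlnTTG 1-32 chr11.trna1493: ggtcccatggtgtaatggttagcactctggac
GlnTTG 1-33: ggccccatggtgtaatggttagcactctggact
The first of these had 105226, 104335, 141471 and 145651 counts in WT and 96085, 139238, 87395 and 105083 in NSun2 −/− libraries, a log2 change of −0.01 (SE 0.28). The GlnTTG read of chr11.trna1493 had 2609, 1225, 2277 and 2125 counts in WT and 1081, 3517, 1125 and 803 in NSun2 −/− libraries (log2 −0.19, SE 0.47), and the read of chr13.trna113 and chr13.trna114 had 588, 346, 376 and 402 against 252, 538, 288 and 236 (log2 −0.21, SE 0.35). The GlnTTG reads were chosen after their values were seen. None of the 5 most abundant 5′ sequences, which also include GlnCTG 1-32 and the forms of 1-34 and 1-33 with G9T, differed by more than 0.12 on the log2 scale. These changes are scaled over all sequences of a library, unlike the −0.49 of the GlnCTG class, which is scaled over 5′ fragments, so the values cannot be set against each other. Without TMM the median of all sequences moves by −0.41. The read that ends 1 base later fared otherwise: GlnCTG 1-35, chosen after its values were seen, had 2101, 5027, 3377 and 4048 counts in WT and 1650, 1298, 1243 and 1419 in NSun2 −/− libraries. All 4 NSun2 −/− values lay below all WT values, with a log2 change of −1.16 (SE 0.33) and an adjusted p over all sequences of 0.128 in edgeR and 0.00467 in DESeq2.

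**Figure D3:**
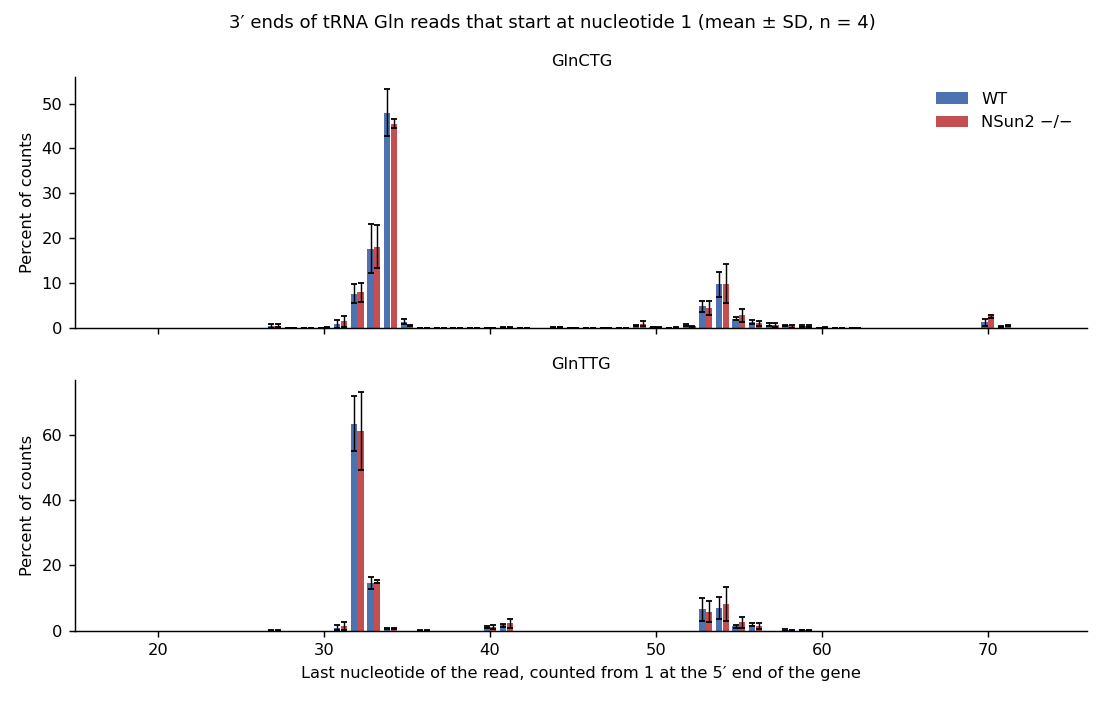
Percent of counts (vertical axis) of GlnCTG and GlnTTG reads that start at nt 1, by the last nucleotide of the read (horizontal axis, counted from the 5′ end of the gene), as mean ± SD of 4 libraries per genotype. GlnCTG reads peak at nt 34, at 40.3% or more of counts in every library, and GlnTTG reads at nt 32, at 47.3% or more, while both have a smaller group of ends at nt 53 to 55.

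Internal-start fragments, reads of 25 to 40 nt that begin after nt 1, made up 8.41%, 14.3%, 9.21% and 9.05% of tRNA Gln fragments in WT and 11.4%, 6.24%, 9.85% and 9.39% in NSun2 −/− libraries. The groups overlapped, with a mean difference of −1.03 percentage points (p = 0.686 in the exact permutation test) that became 0.330 without WT library 2. GlnCTG internal-start fragments stood at 41267, 59478, 53663 and 44940.3 CPM in WT and 42288, 25219, 30782 and 48526 CPM in NSun2 −/− libraries. They overlapped (log2 −0.44, SE 0.21, edgeR adjusted p = 0.180), and the change was −0.23 for sequences without mismatches (adjusted p = 0.280). GlnTTG internal-start fragments stood at 8545, 15338, 11885 and 9478 CPM in WT and 5656, 1931, 4119.8 and 7338 CPM in NSun2 −/− libraries. Every NSun2 −/− library lay below every WT library, with means of 11312 ± 3031 and 4761 ± 2299.7 CPM (SD, n = 4). The log2 change was −1.25 (SE 0.37), against a median of 0.18 over all 49 families and shared groups. It just missed the threshold in edgeR (adjusted p = 0.0620) and passed it in DESeq2 (−1.26, adjusted p = 0.00390), and in edgeR also without WT library 1 (−1.36, adjusted p = 0.0485) or without NSun2 −/− library 4 (−1.51, adjusted p = 0.0427). Over all alternatives its adjusted p ranged from 0.00390 to 0.206. In this class edgeR called 4.08% of the 49 groups, 0 lower and 2 higher, with 16 at an unadjusted p under 0.05. When scaled by all tRNA counts edgeR called 0, and DESeq2 called 5 lower and 6 higher, 22.4% of the groups. Fragments that match both isoacceptors had a log2 change of −0.24 (SE 0.16, edgeR adjusted p = 0.285). It was −0.06 with counts divided by the loci, −0.03 for sequences without mismatches and −0.12 for fragments of 28 to 36 nt.

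The fragment that spans nt 8 to 40 covers the anticodon and is shown for both isoacceptors, with the anticodon in capitals, since it led the GlnTTG class.
GlnCTG 8-40: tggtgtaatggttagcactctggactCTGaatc
GlnTTG 8-40: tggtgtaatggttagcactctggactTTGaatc
GlnTTG 8-40 had 971, 1827, 1341 and 1264 counts in WT and 629, 225, 495 and 683 in NSun2 −/− libraries (log2 −1.16, SE 0.44, edgeR adjusted p = 0.260). GlnCTG 8-40 had 1125, 2214, 1863 and 1440 counts against 1368, 486, 774 and 1206 (log2 −0.55, SE 0.43, adjusted p = 0.649). The GlnTTG counts separated by genotype and the GlnCTG counts did not, and neither passed the test. Starts at nt 8 made up 68.3% to 74.5% of GlnTTG internal-start counts in the 4 WT libraries and 43.5% to 58.4% in the 4 NSun2 −/− libraries, a position chosen after its values were seen. For GlnCTG the same start took 15.6% to 22.9% in WT and 8.57% to 19.4% in NSun2 −/− libraries. The most abundant internal sequence, GlnCTG or GlnTTG 8-33, ends before the anticodon and had a log2 change of −0.04 (SE 0.29). GlnCTG 6-34 and GlnCTG 17-54, the remaining internal sequences among the 5 most abundant, had changes of 0.02 and −0.30.

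Within a library, the isoacceptors were set against each other by the fragments that cover nt 34 and match a single anticodon. GlnCTG took 98.1%, 97.1%, 98.1% and 98.2% of these in WT and 98.5%, 99.5%, 98.8% and 98.7% in NSun2 −/− libraries. All 4 NSun2 −/− libraries lay above all WT libraries, a difference of 0.971 percentage points, or 1.69 with counts divided by the loci. The p of 0.0286 is the smallest the exact permutation test can give here, and it missed the threshold after adjustment over the 5 shares (adjusted p = 0.143). The separation came from internal-start fragments, of which GlnCTG took 81.3%, 79.1%, 81.1% and 81.7% in WT and 87.6%, 91.5%, 87.6% and 86.2% in NSun2 −/− libraries (exact permutation test, p = 0.0286). Among 5′ fragments that reach nt 34 nearly all counts were GlnCTG in both genotypes (exact permutation test, p = 0.257), since GlnTTG 5′ fragments mostly end before it.

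Mature tRNA, the form to which the amino acid is attached, was counted from reads with a CCA end that span 90% or more of a gene. They were scarce for GlnCTG, with 358, 345, 643 and 469 counts in WT and 392, 358, 349 and 212 in NSun2 −/− libraries, and none were found for GlnTTG. In CPM of mature tRNA these are 209, 202, 449 and 372 in WT and 385, 454, 395 and 224 in NSun2 −/− libraries. On this scale the groups overlapped (log2 0.24, SE 0.48, edgeR adjusted p = 0.857). No family was called in this class, 0% of 18 (DESeq2 0, with 2 at an unadjusted p under 0.05 in edgeR). Scaled by all tRNA counts the change was −0.63, where the median of all 18 families moved by −0.82 to −0.88. GlnCTG thus lay above the median of all families with either scaling, while the sign of its change depends on the scaling. As a share of all tRNA counts, mature GlnCTG reads took between 0.00199% and 0.00265% in the WT libraries and between 9.74e-04% and 0.00197% in the NSun2 −/− libraries, all 4 of which lay below all WT libraries. Mature reads made up 0.0936%, 0.107%, 0.164% and 0.116% of tRNA Gln counts in WT and 0.129%, 0.0867%, 0.127% and 0.0640% in NSun2 −/− libraries. These overlap too (exact permutation test, p = 0.457). The sequence below, the mature GlnCTG of chr11.trna1817 with its CCA end, is shown because it is the complete form, with the anticodon in capitals.
GlnCTG 1-75: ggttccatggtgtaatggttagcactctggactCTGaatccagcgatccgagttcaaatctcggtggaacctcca
It had 30, 38, 40 and 68 counts in WT and 50, 46, 54 and 34 in NSun2 −/− libraries (log2 0.25, SE 0.51). The other 4 mature sequences that the rule names carry A57G, G9T or A57T, and their log2 changes lay between −1.37 and 0.73 with standard errors of 0.61 to 1.51.

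Nearly complete GlnCTG reads without CCA were more frequent than mature reads, with 8257, 2266, 2770 and 6777 counts in WT and 7616, 12109, 8455 and 8521 in NSun2 −/− libraries. As a share of all tRNA counts they took 0.0460%, 0.0131%, 0.0114% and 0.0302% in WT and 0.0383%, 0.0329%, 0.0357% and 0.0485% in NSun2 −/− libraries, which overlap. Of the GlnCTG reads that start at nt 1, those that end at nt 70 took 2.10%, 0.698%, 0.599% and 1.63% in WT and 2.41%, 2.83%, 3.01% and 2.33% in NSun2 −/− libraries. This end was chosen after its values were seen, and here every NSun2 −/− value exceeded every WT value. When reads with and without CCA were counted together, the log2 change was 1.39 and did not pass the test (edgeR adjusted p = 0.102).

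Of the 1214 read sequences placed on tRNA Gln genes, 744 passed the filter on low counts and were tested with all others of the library, 12863 in total. In edgeR 4 of them were called (0.538%), all lower in NSun2 −/− skin, beside 2.46% of all sequences called and 1.52% called lower. DESeq2 called 20 lower and 3 higher, 3.09% beside 9.97% of all sequences, and at an unadjusted p under 0.05 edgeR has 29 lower and 9 higher, 5.11% beside 14.6%. With counts divided by the loci, edgeR called 11 of 185, beside 11.8% of all sequences. The median log2 change was −0.07 for tRNA Gln and −0.08 for all sequences, and all sequences split into 196 lower and 120 higher calls with TMM, 210 and 72 without it, and 198 and 74 when scaled by all tRNA counts. These scalings move the median of all sequences by −0.41 and −0.38, so that changes of single sequences are to be read relative to it. A share below the background is no result about tRNA Gln as a whole, and the 4 sequences are described for what they are. Of these, 3 come from a single gene, chr13.trna87, and carry its C in the variable loop (T47C). The base at nt 47 corresponds to position 48 in the usual numbering of tRNAs. Shown are the one of the 3 with the smallest p in edgeR and its counterpart from the genes without this change. The anticodon and the changed base are in capitals.
GlnCTG 1-54 chr13.trna87: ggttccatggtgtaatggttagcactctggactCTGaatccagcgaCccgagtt
GlnCTG 1-54: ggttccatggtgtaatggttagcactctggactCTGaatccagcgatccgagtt
The first had 329, 550, 490 and 453 counts in WT and 31, 19, 30 and 50 in NSun2 −/− libraries, so that each WT library exceeded each NSun2 −/− library several fold. It fell by 3.54 on the log2 scale (SE 0.48, edgeR adjusted p = 0.0171). Its counterpart, chosen after its values were seen, had 19369, 29624, 22883 and 24402 counts in WT and 23821, 11389, 20643 and 32536 in NSun2 −/− libraries, with a log2 change of 0.14 (SE 0.40, adjusted p = 0.925). The read of chr13.trna87 that ends at nt 53, chosen after its values were seen, had 386, 587, 549 and 547 counts in WT and 34, 18, 38 and 79 in NSun2 −/− libraries and fell by 3.31 (SE 0.57, adjusted p = 0.0271). Its form 1-54 with G9T had 48, 71, 72 and 56 counts against 6, 2, 3 and 2 and fell by 4.02 (SE 0.67, adjusted p = 0.0255). These calls were lost in edgeR without the filter, at −3.55, −3.32 and −4.03 in this order (adjusted p = 0.0579, 0.0947 and 0.172). They were also lost with a replicate block, at −3.66, −3.58 and −4.12 (adjusted p = 0.357, 0.357 and 0.378).

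The fourth sequence called is a short piece of GlnTTG around the anticodon, which is in capitals, shown with the same piece of GlnCTG.
GlnTTG 23-40: cactctggactTTGaatc
GlnCTG 23-40: cactctggactCTGaatc
GlnTTG 23-40 had 507, 584, 568 and 730 counts in WT and 173, 129, 151 and 117 in NSun2 −/− libraries and fell by 1.87 on the log2 scale (SE 0.29, edgeR adjusted p = 0.0242). Its call too was lost in edgeR without the filter (−1.88, adjusted p = 0.0926) and with a replicate block (−1.87, adjusted p = 0.374). GlnCTG 23-40, chosen after its values were seen, had 493, 746, 625 and 669 counts against 361, 174, 350 and 306, a log2 change of −0.87 (SE 0.34, adjusted p = 0.275). Both separate by genotype, and the difference between them was not tested. With 1 library left out, the number of tRNA Gln sequences called was 4 without WT library 1 and 2 without NSun2 −/− library 4. It was 0 without WT library 2, 3 or 4 or NSun2 −/− library 1, 2 or 3. In those fits the calls over all sequences went from 316 to between 0 and 35, so the loss was not limited to tRNA Gln. With each library left out in turn, the log2 change was −3.03 or lower for the 3 sequences of chr13.trna87 and between −1.95 and −1.78 for GlnTTG 23-40.

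Taking every read that covers nt 47 of a GlnCTG gene, those with the C of chr13.trna87 numbered 1117, 1876, 1728 and 1609 counts in WT and 159, 123, 100 and 229 in NSun2 −/− libraries. Those with the base of the other genes numbered 76909, 96478, 81237 and 85933 counts in WT and 83480, 53968, 79014 and 102140 in NSun2 −/− libraries, which overlap. With counts divided by the matching loci, the C reads made up 8.76%, 12.2%, 13.0% and 11.3% in WT and 1.09%, 0.619%, 0.804% and 1.47% in NSun2 −/− libraries, or 11.3% ± 1.83 and 0.996% ± 0.372 (SD, n = 4). Of the 22 sequences specific to the gene, 15 were tested and all 15 had a log2 change below 0. This summary was made after the values of the called sequences were seen. The gene lies on chromosome 13, as does Nsun2, and it is also the one with the lowest Pol III ratio. Other listed tRNA Gln genes lie on this chromosome too, with log2 Pol III ratios of 0.18 (chr13.trna64), −0.47 (chr13.trna982), −0.55 (chr13.trna975), −0.25 (chr13.trna113) and −0.07 (chr13.trna114). The sequence of these mice at the gene was not analysed here.

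Reads that mark other genes moved less. Those specific to chr3.trna309, which differs by T20G, had 297, 690, 618 and 695 counts in WT and 225, 242, 274 and 263 in NSun2 −/− libraries, or means of 28.2 ± 9.74 and 11.1 ± 3.45 in CPM of all tRNA counts (SD, n = 4). The NSun2 −/− values lay below all WT values, and 7 of 7 tested sequences had a log2 change below 0, with 0 called in edgeR. Reads specific to chr11.trna1817 and its 3 identical copies had 9588, 3147, 4000 and 7870 counts in WT and 8752, 13606, 9505 and 9116 in NSun2 −/− libraries, and overlapped. Here 10 of 46 tested sequences had a log2 change below 0, with a median of 0.58. Reads specific to chr13.trna975 were few, with 20, 45, 15 and 11 counts in WT and 4, 4, 8 and 20 in NSun2 −/− libraries. Those of chr3.trna297, chr3.trna753 and chr3.trna756 had 95, 100, 215 and 199 counts against 115, 74, 54 and 125. Both overlapped between the genotypes in CPM of all tRNA counts. Reads of the GlnTTG gene chr11.trna1493 alone had 3754, 2080, 3327 and 3138 counts against 1822, 5092, 1938 and 1545, and reads of chr13.trna113 and chr13.trna114 had 1246, 1048, 940 and 1030 against 574, 906, 610 and 690. In CPM of all tRNA counts, 3 of 4 NSun2 −/− libraries lay below all WT libraries in both cases. Reads common to these 3 GlnTTG genes separated by genotype, with means of 281 ± 74.4 CPM for WT and 137 ± 60.7 CPM for NSun2 −/− libraries (SD, n = 4). Of their single sequences tested, which are scaled by TMM over all sequences, 29 of 58 had a log2 change below 0, with a median of 0.00. For chr11.trna1493 it was 6 of 14, with a median of 0.07, and for chr13.trna113 and chr13.trna114 10 of 14, with a median of −0.21.

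**Figure D4:**
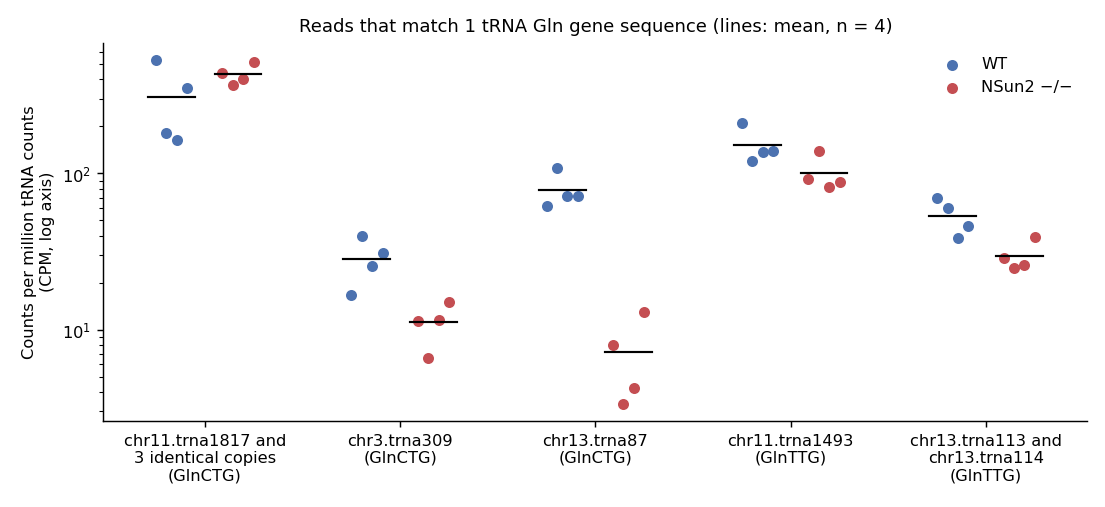
Reads that match a single tRNA Gln gene sequence, in CPM of all tRNA counts (log axis), by genotype, with a point per tRNA-seq library and a line at the mean of 4 libraries. The reads of chr13.trna87 have means of 78.3 in WT and 7.15 in NSun2 −/− skin, those of chr3.trna309 28.2 and 11.1, and the other 3 sequences shown overlap between the genotypes.

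Mismatches between reads and genes can mark modified nucleotides, since reverse transcriptase misreads some of them. At nt 9, a guanosine that is methylated in many tRNAs, 15.6%, 15.8%, 16.4% and 16.3% of tRNA Gln counts differed from the gene in WT and 16.0%, 16.1%, 16.5% and 16.3% in NSun2 −/− libraries. The libraries overlapped, and the difference of 0.213 percentage points had p = 0.400 in the exact permutation test. It ranged from 0.0633 without WT library 1 to 0.344 without WT library 3. The isoacceptors were close to each other, with means of 16.3% ± 0.394 for GlnCTG and 15.5% ± 1.31 for GlnTTG in WT, and 16.5% ± 0.207 and 15.8% ± 2.13 without NSun2 (SD, n = 4). The base read in place of G was mostly T, in 10.9% ± 0.260 of WT counts.

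Other mismatches of GlnCTG lie at nt 54 to 58, positions chosen after their values were seen and not tested. At nt 54, 1.93% ± 0.707 of counts differed from the gene in WT and 1.13% ± 0.0910 in NSun2 −/− libraries (SD, n = 4), with no overlap. At nt 55 it was 44.9% to 66.2% in the WT libraries and 19.2% to 46.1% in the NSun2 −/− libraries, 3 of which lay below all WT libraries. The means at nt 56, 57 and 58 were 62.0%, 56.7% and 40.5% for WT and 40.8%, 36.6% and 22.3% without NSun2, with 2 of 4 NSun2 −/− libraries below all WT libraries at each. GlnCTG thus had lower mean mismatch shares at these 5 positions without NSun2, with overlap between the groups at 4 of them. Placement allowed up to 4 mismatches, and many reads that end here match no mm9 locus with up to 2. Among GlnCTG reads from nt 1 in WT, ends at nt 58 took a mean of 0.575% of counts. They took 0.00271% of reads that match a locus, while ends at nt 54 took 9.71% and 14.7%. What produced these mismatches was not tested, and they are not taken as a measure of modification. For GlnTTG fewer than 1000 counts covered them in at least 1 library.

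Bisulphite sequencing turns cytosines that carry no methyl group into uracil, and the authors deposited counts of unconverted and converted reads for cytosines with at least 10 reads. Few cytosines of tRNA Gln reached this number. WT library 4 lists 7, all in chr13.trna64 (chr13:21264220-21264291, plus strand), NSun2 −/− libraries 1, 2 and 4 list 97, 40 and 33, in 8, 4 and 3 genes, and WT libraries 1 to 3 and NSun2 −/− library 3 list 0. By contrast each of the 8 libraries lists 132 cytosines of the 6 GluCTC genes. The tRNA Gln cytosines had 10 to 24 reads each, so that a value of 50.0% from 10 reads has a 95% Wilson interval of 23.7% to 76.3%, which covers counting error only. No cytosine of tRNA Gln could be tested, since none had 10 reads in 3 libraries of each genotype, as 122736 cytosines of the whole data did. Methylation by NSun2 was therefore not detectable at this depth for either isoacceptor.

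The cytosines that are listed were unconverted in most reads along the whole gene. Summed over cytosines, 39 of 70 reads were unconverted in WT library 4 and 1245 of 1660, 339 of 464 and 284 of 376 in NSun2 −/− libraries 1, 2 and 4. Before the anticodon, at nt 1 to 33, it was 23 of 40 reads in WT library 4 and 310 of 414, 89 of 120 and 38 of 54 in those NSun2 −/− libraries, again more than were converted. In the same libraries the cytosines at nt 1 to 33 of GluCTC had medians of 9.78% in WT library 4 and 34.5%, 39.6% and 19.0% in NSun2 −/− libraries 1, 2 and 4, with a median coverage of 463 to 1840.5 reads. In NSun2 −/− library 3, which lists no tRNA Gln cytosine, that median was 0.623%. GlyGCC was lower at nt 1 to 33, with medians of 0.835% in WT library 4 and 1.57%, 3.79% and 1.09% in NSun2 −/− libraries 1, 2 and 4. Its median coverage there was 5840 to 84640 reads. Over the cytosines of all tRNA genes the medians at nt 1 to 33 were 9.84% in WT library 4 and 23.8%, 33.5% and 17.9% in those NSun2 −/− libraries. Cytosines within 50 bases outside the tRNA Gln genes were listed too, 34, 11 and 10 of them in NSun2 −/− libraries 1, 2 and 4, with medians of 60.0%, 60.0% and 58.2%. These bases are not part of the mature tRNA. What left reads of these cytosines unconverted was not tested.

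At the variable loop, where NSun2 acts on many tRNAs, nt 48 and 49 (usual positions 49 and 50) gave values in the NSun2 −/− libraries only. In library 1 nt 48 of chr11.trna1817 was unconverted in 22 of 24 reads (91.7%, 95% Wilson interval 74.2% to 97.7%) and nt 49 in 18 of 23 reads (78.3%, 58.1% to 90.3%). For the GlnTTG gene chr11.trna1493 both were unconverted in 19 of 22 reads (86.4%, 66.7% to 95.3%). The other genes listed at nt 48 in this library varied, with 20 of 22 reads in chr3.trna756, 11 of 15 in chr9.trna342, 12 of 20 in chr13.trna64, 7 of 12 in chr13.trna982 and 7 of 14 in the GlnTTG gene chr13.trna114. The C at nt 47 of chr13.trna87 was listed in NSun2 −/− library 1 alone and was unconverted in 1 of 10 reads (95% Wilson interval 1.79% to 40.4%), the lowest value of the 97 cytosines there, while nt 49 of the same gene was unconverted in 6 of 10 (60.0%, 31.3% to 83.2%). The other listed tRNA Gln genes carry T at nt 47, and a converted C is read as T. At this base converted reads of chr13.trna87 therefore cannot be told from reads of those genes. With no WT value at these positions, no comparison between the genotypes can be made.

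Across the 8 tRNA-seq libraries, the families whose 5′ fragments were most like GlnCTG in log2 CPM were PheGAA (Pearson's r = 0.87), LeuAAG/LeuTAG (0.84) and AlaAGC (0.79), out of 48 other families and shared groups. Most like GlnTTG were LysTTT (0.85), LeuAAG/LeuTAG (0.84) and AlaAGC (0.77). Between GlnCTG and GlnTTG r was 0.75, so each isoacceptor had closer neighbours than the other. These values describe 8 points that share their libraries, depth and scaling.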

How the data were processed

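For tRNA-seq and ChIP-seq the authors aligned reads to mm9 with Bowtie and deposited a count per predicted tRNA gene, in tRNA-seq also per read sequence, without scaling to depth. For bisulphite sequencing the authors mapped reads with Bismark 0.7.6 and deposited the percent of unconverted reads and the counts behind it, for cytosines with at least 10 reads. Their positions were checked against mm9. All columns of values were used.

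Python 3.11.15 (numpy 2.4.6, pandas 2.3.3, scipy 1.17.1, numba 0.67.0, pysam 0.24.0, matplotlib 3.10.9) and R 4.3.3 were used. Each read sequence was placed whole, with up to 4 mismatches, on the listed genes with and without an added CCA end. It was then classed by start, length and CCA end. Between 0.175% and 0.206% of counts per library could not be placed. Loci matching a sequence were counted with up to 2 mismatches, after removing a CCA end where the whole sequence matched none. Counts were summed per isoacceptor and class and tested over all families, and single sequences over all sequences, with edgeR 4.0.16 (quasi-likelihood, TMM, filterByExpr) at an adjusted p of 0.05. DESeq2 1.42.0 was the alternative. Values with 1 number per library were compared by exact two-sided permutation over the 70 assignments, and 5 of them adjusted together. Placement, edgeR, DESeq2 and the permutation test were tested on simulated data, where DESeq2 called more unchanged sequences than edgeR.

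Alternatives were other scaling, no filter, fragments of 28 to 36 nt, sequences without mismatches, the deposited gene names in place of placement, mature reads with or without CCA, a replicate block, each library left out, and for Pol III 20 reads, a pseudocount of 5, no input and scaling by bound genes. Division by loci and scaling by all tRNA counts were chosen after seeing the data. Sequences named are the 5 most abundant of each class and, in each direction, up to 3 called ones with the smallest p whose groups do not overlap; further ones are marked as chosen later. Families named beside tRNA Gln are GluCTC, GluTTC, AspGTC and GlyGCC and the 3 most alike. The members and lists were chosen with earlier results of these data known.

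Depth ranged from 17352126 to 36749727 counts in tRNA-seq, 36866 to 95112 in Pol III ChIP-seq, and 110324 to 665049 listed cytosines in bisulphite libraries, with a median coverage of 16 or 17 reads.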

Additional observations from a re-analysis of the deposited data

Results flagged for a closer look

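In 4 of 54 groups of 4 libraries checked, 1 library stood apart from the other 3, and chance alone does this in about 1 in 20 groups. WT library 2 accounts for 3 of them. Its fragment GlnCTG or GlnTTG 8-33 reached 219 CPM, where the other WT libraries had 151, 153 and 141. Its CTG share of isoacceptor-specific fragments was the lowest of the WT libraries at 97.1%, where the others had 98.1%, 98.1% and 98.2%. Its internal-start share of tRNA Gln fragments was 14.3%, where the others had 8.41%, 9.21% and 9.05%. The remaining value is that of mature GlnCTG 1-75 with A57T in WT library 4, 2.66 CPM from 63 counts, where the others had 21 counts each. Counts of this sequence come in steps of 21, with 0, 126, 42 and 21 in NSun2 −/− libraries 1 to 4.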

How the results depend on the processing

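Of 237 results under an alternative, 171 kept their direction and their side of the threshold or stayed near their value, 44 became weaker, 9 stronger, 11 moved and 2 reversed. The cause was not tested in any of them.

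GlnCTG mature tRNA reversed to −0.63 when scaled by all tRNA counts, was 0.01 with counts divided by loci, and ranged from 0.10 (without WT library 1) to 0.48 (without WT library 3). The internal-start share of tRNA Gln fragments reversed to 0.330 without WT library 2, and ranged from −1.76 to 0.330 percentage points with each library left out. GlnTTG 5′ fragments passed the threshold without TMM (−0.82, adjusted p = 0.0488), without the filter (−0.84, 0.0350), with counts divided by loci (−0.88, 0.0352) and with fragments of 28 to 36 nt (−0.99, 0.0284), and ranged from −0.99 to −0.63 with each library left out. GlnTTG internal-start fragments passed it in DESeq2 (−1.26, 0.00390) and ranged from −1.51 to −0.99 with each library left out. GlnCTG 5′ fragments ranged from −0.65 to −0.44 with each library left out and were at −0.20 (adjusted p = 0.597) when reads were assigned by the deposited gene names. The tRNA Gln sequences called numbered 23 in DESeq2 (1282 of 12863 sequences in all), 0 without the filter (32 of 32264), 11 with counts divided by loci (569 of 4805), and 0 to 4 with each library left out.

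The labels number the libraries of both genotypes 1 to 4. Libraries of the same number were no more alike than others (Pearson's r of −0.01, −0.30, 0.07 and −0.13 over 12863 sequences after removing the genotype means, with 1 of 4 pairs best matched), so the numbers were not used as pairs. With a replicate block, the log2 change was −0.52 for GlnCTG and −0.79 for GlnTTG 5′ fragments, −0.47 and −1.34 for their internal-start fragments, and 0.29 for GlnCTG mature tRNA. The adjusted p of 5′ fragments that match both isoacceptors was 0.0833, and edgeR called 0 tRNA Gln sequences and 0 sequences in all.

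No alternative gave a value for GlnTTG mature tRNA, which had no reads. Methylation alternatives could not be run, since 0 tRNA Gln cytosines had enough reads at a minimum of 10 or 30. With 4 libraries against 4 the exact test cannot go below 0.0286, and the single NSun2 −/− ChIP-seq library allows no test. Mature GlnCTG reads were few, at most 643 counts per library, and depth left most tRNA Gln cytosines below 10 reads.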
